A study of Mus musculus with 6 samples.

Results

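The genes described here are the close neighbours of Ccnd1 on distal chromosome 7 of the mouse: Nadsyn1, Dhcr7, Shank2, Cttn, Ppfia1, Fadd, Ano1, Oraov1 and Tpcn2. Ccnd1 encodes cyclin D1, the regulatory subunit that lets its partner kinases start the passage from G1 into S phase. The 9 genes were chosen by position, and every probe set annotated to just 1 of them, under its current or an older symbol, was taken. Of the 9, 8 had such a probe set, 16 in all, among 18193 named genes on the array. Shank2, which encodes a scaffold protein of excitatory synapses, had none. Oraov1 is listed as LTO1 in the current annotation.

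Retinas came from newborn mice of 2 genotypes, wildtype and Cyclin D1 -/- (both copies of the cyclin D1 gene inactive). RNA of 3 numbered pools of retinas per genotype was hybridised to 1 Affymetrix array per pool, giving 6 arrays. The labels state neither the strain of either genotype, nor the number or litters of the animals in a pool, so the spread behind each p-value is that between pools and may be technical. Pooled retinas hold many cell types, and fewer cells of a type cannot be told apart from less RNA per cell.

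The neighbours share a location, not a pathway. A targeted allele is made in embryonic stem cells of one strain, and after crosses to another strain a stretch of the stem cell strain's chromosome can stay on both sides of it. Genes in such a stretch may carry other sequence variants than the wildtype animals, either in their regulatory DNA or under the array's probes, and human gene copies of this block are known for being amplified together with cyclin D1 in tumours. The comparison below asks whether signals next to Ccnd1 differed between genotypes. No file used here gives genotypes or probe sequences, so variants themselves were not tested.

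Along RefSeq's gene order the 9 run from Nadsyn1 and Dhcr7 through Shank2, Cttn, Ppfia1, Fadd, Ano1 and Oraov1 to Ccnd1, with Tpcn2 on its far side. The gene models of Oraov1 and Ccnd1 overlap. Nadsyn1 and Dhcr7 start back to back on opposite strands. RefSeq's promoter windows, each 250 bases before to 50 after a start, were matched for 7 of the 9 genes. The window of Ano1, the member whose signal changed, is shown 5′ to 3′ on assembly GRCm38.p6. So are the 186 bases shared by the overlapping windows of Nadsyn1 and Dhcr7, neighbours whose signals are compared below. Ano1's lies at chr7:144738524-144738823 on the minus strand, and the shared stretch at chr7:143822917-143823102, written on the plus strand, which is that of Dhcr7. Capitals mark the GC box GGGCGG, searched on both strands, where it reads CCGCCC on the other strand.
Ano1: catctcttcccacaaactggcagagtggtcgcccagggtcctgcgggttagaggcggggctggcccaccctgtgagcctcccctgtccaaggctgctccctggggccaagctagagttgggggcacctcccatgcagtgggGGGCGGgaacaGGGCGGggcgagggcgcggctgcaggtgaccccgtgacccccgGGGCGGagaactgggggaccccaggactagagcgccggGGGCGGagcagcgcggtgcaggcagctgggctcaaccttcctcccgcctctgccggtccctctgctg
Nadsyn1 and Dhcr7: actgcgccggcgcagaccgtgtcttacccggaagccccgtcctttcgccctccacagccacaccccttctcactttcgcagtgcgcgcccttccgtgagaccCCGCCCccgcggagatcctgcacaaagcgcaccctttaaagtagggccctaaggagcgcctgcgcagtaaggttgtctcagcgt
The Ano1 window held 4 matches and the shared stretch 1. At least 1 match was present in 7 of the 9 windows of the 7 genes, some of which overlap, and in 35.7% of all 32851 promoter windows of this length. A match describes these letters only.

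Levels below are log2 of the quantile normalised signal plus 16, with means ± SD over n = 3 pools. Differences are the knockout mean minus the wildtype mean on that scale, which understates changes of dim genes. Each gene is represented by its brightest probe set unless another is named, and levels of different probe sets are not compared. A gene counts as changed at a limma adjusted p under 0.1, the false discovery rate that the submitters used, adjusted over all 10916 genes that were bright enough to test. The median deposited signal was between 40.6 and 50.5 units on the 6 arrays. The arrays were ranked by hybridisation controls of the BioB and BioC type. The upper 3 were taken as a brighter set (wildtype pool 3, knockout pool 1, knockout pool 2) and the remaining 3 as a dimmer set. The mean log2 control signal was 9.82 to 10.15 in the brighter set and 9.53 to 9.66 in the dimmer, so this is a cut by rank and not at a distinct gap. Pools 1 and 2 were more alike within each genotype (SD of their log2 difference over tested genes 0.22 in wildtype and 0.21 in knockout) than any other pair (0.28 to 0.52). Within wildtype, pool 3 therefore stands apart, and where it or another array decides a value, that is stated.

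Ccnd1 itself bore out the labels. Its level was 12.43, 12.35 and 12.56 in wildtype pools 1 to 3 and 8.86, 8.81 and 8.92 in knockout pools 1 to 3. The signal was 12.0-fold lower in the knockout (log2 difference -3.59, SE 0.076, limma adjusted p = 5.78e-07). On this brightest probe set the knockout pools still gave 460, 494 and 475 deposited units. The other Ccnd1 probe sets were 17.7-fold and 18.9-fold lower.

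Among the flanking genes, Ano1 was higher in knockout retinas and no other passed the test. A filter on the mean over all 6 arrays, whatever the genotype, left 7 of the 8 genes for testing, of which 1 rose and none fell. Over all tested genes 4.66% passed, 2.03% upward and 2.63% downward. The 7 had a median log2 difference of -0.034, against 0.020 over all tested genes, and 5 of the 7 differences were below 0. At the level of probe sets 13 of the 16 were tested and 1 passed, against 3.53% of all 20967 tested probe sets. Of these 13 differences 8 were above 0, with a median of 0.15, against 0.014 over all tested probe sets. Which side of 0 held most members therefore depended on the choice of probe sets.

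**Figure D1:**
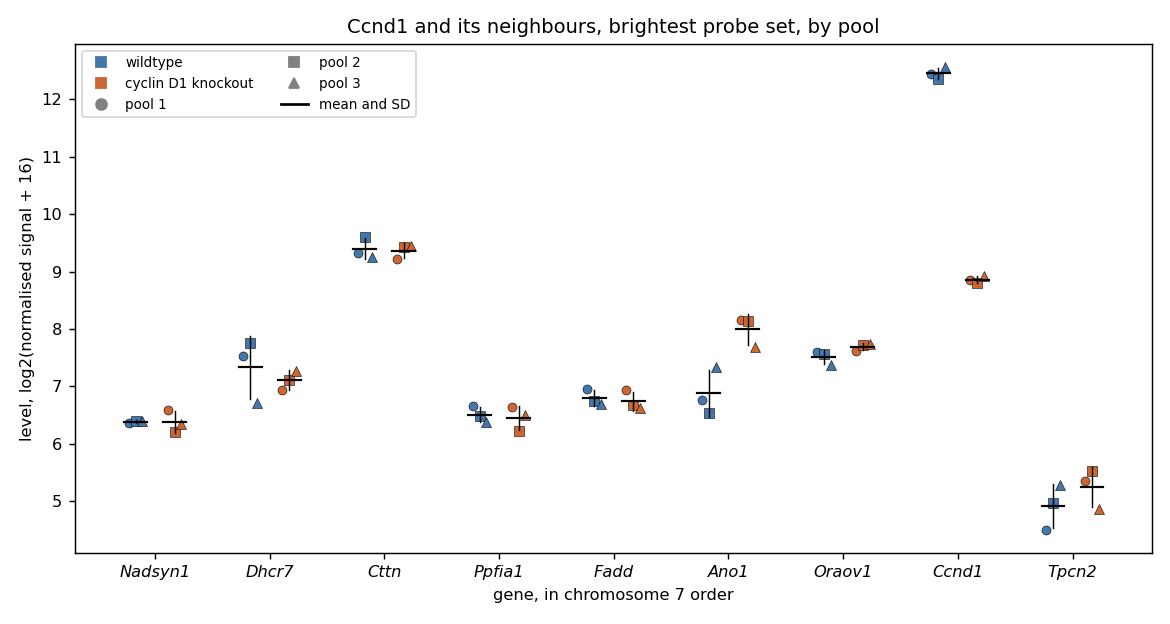
Level of Ccnd1 and of the 8 neighbours with a probe set in each of the 6 pools, as log2 of the normalised signal plus 16, in chromosome 7 order. Points are pools, bars the mean and SD (n = 3). Apart from Ccnd1, the genotypes separate for Ano1 and by a small distance for Oraov1.

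Ano1 encodes anoctamin 1, a chloride channel opened by calcium. Its level was 6.77, 6.54 and 7.34 in wildtype pools 1 to 3 and 8.16, 8.15 and 7.69 in knockout pools 1 to 3. The deposited signals were 90.1, 70.1 and 141 units in wildtype and 272, 299.5 and 194 units in knockout pools. Every knockout pool lay above every wildtype pool, but wildtype pool 3 was the highest of its genotype and knockout pool 3 the lowest of its own. The mean rose from 6.88 ± 0.41 to 7.996 ± 0.27, which is 2.16-fold (log2 difference 1.11, 95% confidence interval 0.58 to 1.64, limma adjusted p = 0.0457). Groups that do not overlap are common here, in 20% of tested genes.

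The size of the Ano1 difference varied less than its call. Within the arrays with brighter hybridisation controls the difference was 0.81, and within the others 1.03. In each set one genotype has only 1 array. Blocking on the array set gave 0.92 (limma adjusted p = 0.00379), while with the replicate number as the block the call ended. The call ended without wildtype pool 1 (difference 1.06, limma adjusted p = 0.166), wildtype pool 2 (0.94, 0.123), knockout pool 1 (1.03, 0.216) or knockout pool 2 (1.04, 0.216). It held without wildtype pool 3 (1.34, 0.00338) or knockout pool 3 (1.27, 0.0654). Without wildtype pool 3, however, 7.93% of all tested genes were higher, against 2.03% in the main fit. When the similar pools 1 and 2 were averaged within each genotype (2 against 2 samples), the difference was 0.92 and the limma adjusted p 0.554, the largest of 21 alternatives. The call held in 14 of the 21.

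Markers of other tissue and cell types also differed between the genotypes. The counts below stand beside 2.03% of all tested genes higher and 2.63% lower. Of 17 tested lens genes 13 were higher in the knockout and none lower. The summed signal of the lens list was 0.151%, 0.156% and 0.0566% of the total in wildtype pools 1 to 3 and 0.446%, 0.434% and 1.12% in knockout pools 1 to 3. Lens signal and Ano1 were both higher in every knockout pool than in every wildtype pool. Within wildtype, lens signal was lowest in pool 3, where Ano1 was highest. Within knockout, lens signal was highest in pool 3, where Ano1 was lowest. Each of these orders rests on 1 pool. Ganglion cell markers held 0.0501% to 0.0537% of the total in wildtype and 0.0779% to 0.0803% in knockout pools, with 4 of 7 tested genes higher and none lower. Photoreceptor markers went from 0.0878% to 0.112% in wildtype to between 0.132% and 0.141% in knockout pools, with 4 of 9 higher and none lower. Progenitor and dividing cell markers were at 0.0982% to 0.103% in wildtype and 0.0631% to 0.0686% in knockout pools, with 4 of 8 lower and none higher. Amacrine and horizontal cell markers were at 0.0398% to 0.0546% in wildtype and 0.0326% to 0.0380% in knockout pools, with 1 of 8 higher and 3 lower. Blood vessel markers were at 0.0222% to 0.0227% in wildtype and 0.0214% to 0.0216% in knockout pools, and 0 of 3 tested genes passed. Pigment epithelium markers held 0.0193% to 0.0291% in wildtype and 0.0215% to 0.0269% in knockout pools, with 1 of 7 lower. Red blood cell markers stayed at or below 0.00153% in every pool. The part of these cell types in the Ano1 difference was not tested.

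The second Ano1 probe set pointed the same way with a smaller difference that did not pass. This dimmer probe set gave 6.67, 6.53 and 7.24 in the 3 wildtype pools in order, and 7.55, 7.53 and 7.01 in the knockout ones. Here the genotypes overlapped, since knockout pool 3 lay below wildtype pool 3. The mean was 6.81 ± 0.38 in wildtype and 7.37 ± 0.31 in knockout (log2 difference 0.55, 95% confidence interval 0.035 to 1.07, limma adjusted p = 0.395 over all tested probe sets). Without wildtype pool 3 this probe set passed as well (difference 0.77, limma adjusted p = 0.0365). Calls were more common in that setting, where 7.93% of all tested genes were higher, against 2.03% in the main fit. When the probe sets of each gene were averaged, the Ano1 difference was 0.83 and its call ended (limma adjusted p = 0.122).

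Both Ano1 probe sets are on the same array, so a change that scales both alike largely cancels in their ratio. Probe sets that respond unequally to the same RNA can still change in ratio when the level changes. Whether these respond alike was not tested. The log2 ratio of the brighter probe set to the other was 0.10, 0.014 and 0.097 in wildtype pools 1 to 3. In knockout pools 1 to 3 it was 0.60, 0.61 and 0.67. These ratios lay close together within each genotype, 0.070 ± 0.049 against 0.63 ± 0.039, and apart between them, also for the third pools that were so alike in level. The difference of 0.56 (95% confidence interval 0.27 to 0.85, SE 0.12) stood at rank 19 by limma among 5217 genes with at least 2 tested probe sets. It did not pass after adjustment over these genes (limma adjusted p = 0.744). No gene did (0%), while 213 had an unadjusted p under 0.05. The submitters' error model called 0 as well, array weights 9 genes and the fit without wildtype pool 3 8 genes, with Ano1 not among them (limma adjusted p = 0.151 and 0.178). The ratio was examined after both probe sets had been seen to differ.

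Of the 4 flanking genes with 2 tested probe sets, Ano1 alone had ratios that did not overlap between genotypes, as 9.30% of the 5217 genes did. The ratio differed by -0.092 for Cttn, by -0.26 for Ppfia1 and by 0.032 for Oraov1, with limma adjusted p = 1.00 for each. Ccnd1 showed a shift like that of Ano1, 0.56, between its 2 brightest probe sets, whose own log2 differences were -3.59 and -4.15 (limma adjusted p of the ratio = 0.893). In Affymetrix naming, the ending _s_at, which the brighter Ano1 probe set carries, marks probes that may match several transcripts. Signal from other transcripts, variants under the probes and a shift between transcript forms were not tested.

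**Figure D2:**
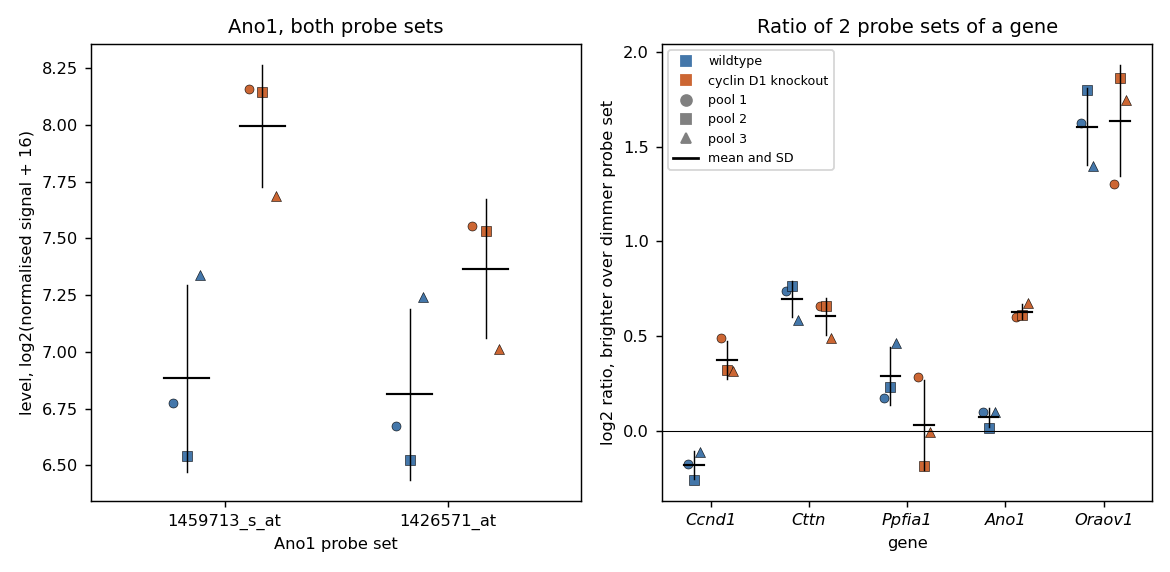
Left, level of both Ano1 probe sets in each pool, as log2 of the normalised signal plus 16. Right, log2 ratio of the brighter to the dimmer of 2 probe sets of a gene in the same pools, where the knockout pools of Ano1 sit at 0.60 to 0.67 and its wildtype pools at 0.014 to 0.10.

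The tested genes whose level followed that of Ano1 most closely over the 6 arrays were Nfkbia, an inhibitor of the transcription factor NF-kappaB, Moxd1, a gene of the copper monooxygenase family, and Ankrd13b, an ankyrin repeat gene. Their Pearson r with Ano1 was 0.997, 0.993 and 0.992, as a description over 6 arrays that share the genotype difference and the sets of arrays. Their own differences were 0.36, 0.51 and 0.27.

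Dhcr7 and Nadsyn1, whose promoter windows share the stretch shown above, are farthest from Ccnd1 and did not pass. Dhcr7 encodes the enzyme of the last step of cholesterol synthesis. Its level was 7.53, 7.76 and 6.70 in wildtype pools 1 to 3 and 6.94, 7.12 and 7.28 in knockout pools 1 to 3. All knockout pools lay between wildtype pool 3, the lowest of the 6, and wildtype pools 1 and 2, the highest. The difference was -0.22 (95% confidence interval -0.82 to 0.39, limma adjusted p = 0.874). Wildtype pool 3 decided this: without it Dhcr7 was lower in the knockout by 0.53 on the log2 scale (difference -0.53, limma adjusted p = 0.0475). With array weights the difference was -0.48 (limma adjusted p = 0.0331). In these fits 9.93% and 16% of all tested genes were lower, against 2.63% in the main fit. Within the arrays with brighter controls, where pool 3 is the only wildtype array, the difference was 0.33, and within the others -0.37. Blocking on the array set left -0.020 (limma adjusted p = 0.969). Spread between pools of a genotype was large for Dhcr7, at the 92.6th percentile of tested genes.

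Sterol synthesis genes, which are switched on together when a cell is short of cholesterol, were counted beside Dhcr7. Of 16 tested, 1 was lower and none higher, against 2.63% and 2.03% of all tested genes, with a median difference of -0.19. The one that fell was Idi1, isopentenyl diphosphate isomerase, from 9.03 ± 0.072 to 8.33 ± 0.045 (log2 difference -0.71, limma adjusted p = 0.00685). Without wildtype pool 3, 8 of the 16 were lower and 1 higher, but then 9.93% of all tested genes were lower and 7.93% higher. With array weights 8 were lower and 2 higher, against 16% and 17% of all tested genes. Gene lists of other members moved with array weights too. Of 11 tested scaffold genes counted for Shank2, 5 were lower and 1 higher. Of 5 tested genes of death receptor signalling 3 were higher, and of 3 tested anoctamins 2, with none lower in either list. Relative to each gene's mean over the arrays, the median sterol gene stood at 0.10, 0.19 and -0.0080 in wildtype pools 1 to 3 and at -0.087, -0.098 and -0.14 in knockout pools 1 to 3.

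Nadsyn1 encodes NAD synthetase, which makes NAD by the last step of the routes from nicotinic acid and tryptophan. The wildtype pools gave 6.36, 6.40 and 6.40 and the knockout pools 6.59, 6.20 and 6.35, with the wildtype values inside the knockout range. The difference was -0.0077 (95% confidence interval -0.35 to 0.34, limma adjusted p = 0.996). Unlike Dhcr7, it had no low value in wildtype pool 3. Of 5 tested genes of NAD synthesis none passed, and their median difference was 0.14.

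Cttn, cortactin, which steadies branched actin at the cell edge, had the most probe sets, 5, of which 4 were tested. The brightest gave 9.33, 9.60 and 9.25 in wildtype and 9.21, 9.43 and 9.44 in knockout pools 1 to 3, and the genotypes overlapped. Its difference was -0.034 (95% confidence interval -0.31 to 0.24, limma adjusted p = 0.966). The other 3 tested probe sets differed by 0.058, 0.19 and 0.19, none past the threshold (limma adjusted p = 0.819 to 0.962), so the direction of this small difference depended on the probe set. It also turned with the scaling, to 0.083 with arrays centred on their medians and 0.17 in the values as deposited. The untested probe set had deposited signals of 1.00 to 5.33 units. Of 17 tested genes of branched actin assembly 1 was lower and none higher, against 2.63% and 2.03% of all tested genes. The lower one was Wasf1, a subunit of the WAVE complex (log2 difference -0.42, limma adjusted p = 0.0921).

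Ppfia1 encodes liprin alpha 1, an adaptor at cell adhesions and synapses that binds receptor tyrosine phosphatases of the LAR type. Its level was 6.65, 6.49 and 6.38 in wildtype and 6.63, 6.23 and 6.50 in knockout pools 1 to 3, again overlapping. The difference was -0.057 (95% confidence interval -0.43 to 0.31, limma adjusted p = 0.960), and its dimmer probe set gave 0.20 (limma adjusted p = 0.831). In the values as deposited the brighter probe set was at 0.012. Among 14 tested liprins, receptor phosphatases and their partners 3 were lower and 1 higher, against 2.63% and 2.03% of all tested genes. Ptprs and Ptprd, both receptor phosphatases of that type, fell by 0.37 and 0.50 on the log2 scale (limma adjusted p = 0.0316 and 0.0410). The other two were Rims1, a scaffold of the presynaptic active zone, which fell by 0.53, and Ptprf, which encodes LAR itself and was higher by 0.39 (limma adjusted p = 0.0754 and 0.0845). With the probe sets of a gene averaged, the difference of Ptprs was 0.039. Of the partner genes named, Idi1 passed in 18 of 21 alternatives, Ptprs in 12, Rims1 in 9, Wasf1 in 8 and Ptprf in 7 of 21, and Ptprd in 9 of 20.

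Fadd, the adaptor that joins death receptors to caspase 8, was at 6.95, 6.74 and 6.69 in wildtype and 6.94, 6.67 and 6.63 in knockout pools 1 to 3. The ranges nearly coincided, and the difference was -0.050 (95% confidence interval -0.40 to 0.30, limma adjusted p = 0.961). In the values as deposited it was 0.023. A second Fadd probe set was too dim to test, with deposited signals of 1.00 to 3.54 units. Of 5 tested genes of death receptor signalling none passed, and their median difference was 0.18.

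Oraov1, a gene named for overexpression in oral cancer whose product helps to load an iron-sulfur cluster onto a ribosome recycling factor, is the nearest neighbour of Ccnd1. Its level was 7.60, 7.57 and 7.37 in wildtype and 7.62, 7.73 and 7.73 in knockout pools 1 to 3. Every knockout pool lay above every wildtype pool, wildtype pool 1 and knockout pool 1 by a small distance only. The difference was 0.18, or 1.13-fold (95% confidence interval -0.097 to 0.45), and it did not pass (limma adjusted p = 0.656). It was above 0 in all 21 alternatives, from 0.11 to 0.28, and passed in none. Its dimmer probe set gave 0.15 with overlapping genotypes (limma adjusted p = 0.899). Ano1 and Oraov1 were the 2 of 7 tested flanking genes whose genotypes did not overlap, and their brightest probe sets the 2 of 13, against 17.6% of all tested probe sets. Of 9 tested genes of iron-sulfur protein assembly none passed.

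Tpcn2, a cation channel of endosomes and lysosomes and the one member beyond Ccnd1, was too dim to be tested. Its deposited signals were 6.10, 14.0 and 26.1 units for wildtype and 25.4, 32.4 and 12.4 units for knockout pools 1 to 3, and the genotypes overlapped. The levels were 4.92 ± 0.39 and 5.25 ± 0.35. In a fit with no filter on low values its difference was 0.33 (95% confidence interval -0.25 to 0.90, limma adjusted p = 0.800). Of 6 tested genes in the lysosome and endosome list counted for Tpcn2, not all of them channels, none passed. None of the 3 other tested anoctamins and none of the 11 tested scaffold genes of the Shank2 list did so either. In all 86 tested genes of the 9 partner lists 1 was higher and 5 were lower, against 2.03% and 2.63% of all tested genes.

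**Figure D3:**
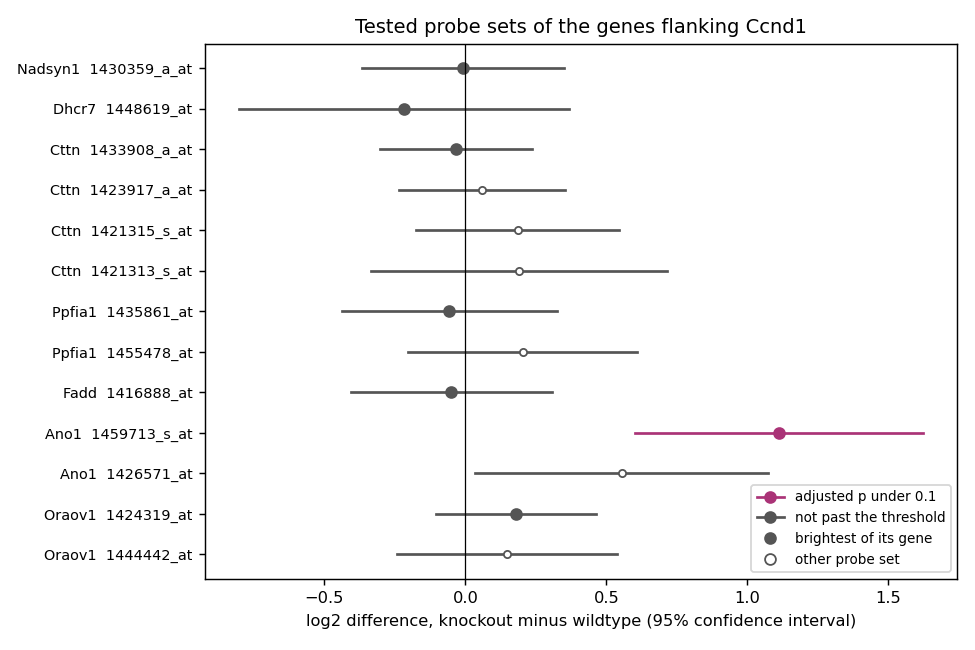
Log2 difference, knockout minus wildtype, of the 13 tested probe sets of the flanking genes with its 95% confidence interval from the fit over all probe sets (n = 3 pools per genotype). Only the brighter Ano1 probe set, at 1.11, is past the threshold, while both Ano1 intervals lie above 0.

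The 6 tested flanking genes that did not pass had intervals of different widths, from -0.31 to 0.24 for Cttn to -0.82 to 0.39 for Dhcr7, and each includes 0. A missed threshold does not show that a gene was equal in both genotypes.

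Genes around the members were read in the same way. The window ran from the 20 array genes before Nadsyn1 to the end of chromosome 7 and held 25 further genes besides Ccnd1, of which 12 were tested. Of these 1 was higher and none lower, with a median difference of 0.12. The one that rose was Fgf15, a growth factor gene expressed by dividing retinal progenitors, which lies between Ano1 and Oraov1. Its level was 8.84, 8.82 and 8.36 in wildtype and 9.49, 9.52 and 9.15 in knockout pools 1 to 3, with no overlap. It rose 1.64-fold (log2 difference 0.71, 95% confidence interval 0.34 to 1.08, limma adjusted p = 0.0620). The difference was 1.15 within the arrays with brighter controls and 0.32 within the others. The call ended when wildtype pool 1, wildtype pool 2, knockout pool 1 or knockout pool 2 was left out (limma adjusted p = 0.117, 0.106, 0.269 and 0.279). It held in 11 of 21 alternatives, whose largest limma adjusted p was 0.447, with pools 1 and 2 averaged. Fgf4, between Fgf15 and Ano1, differed by 0.13 (limma adjusted p = 0.889), and Fgf3 was too dim to test. Elsewhere on chromosome 7, 14 of 805 tested genes were higher and 14 lower, against 2.03% and 2.63% of all tested genes. Their median difference was 0.0086.

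**Figure D4:**
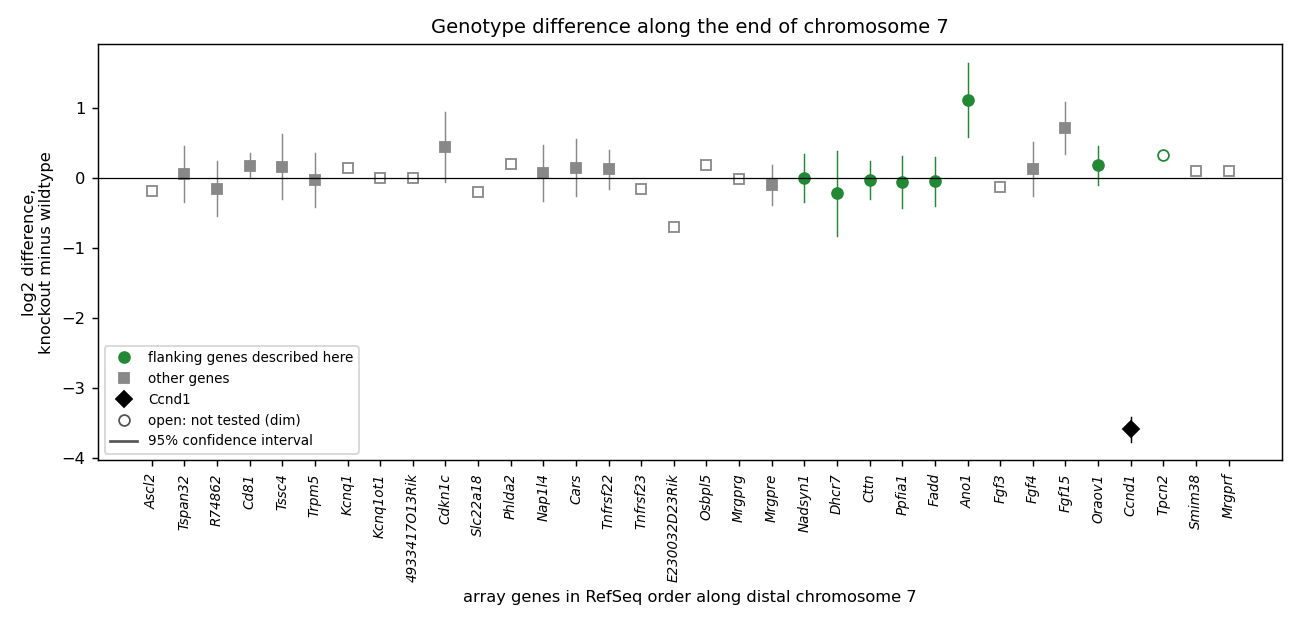
Log2 difference, knockout minus wildtype, of array genes along the end of chromosome 7 in RefSeq order, with 95% confidence intervals for tested genes and open symbols for genes too dim to test. Ccnd1 stands at -3.59 and Ano1 at 1.11, with Fgf15 at 0.71 and the other tested genes between -0.22 and 0.44.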

How the data were processed

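The members and gene lists were chosen with earlier results of these data known. The authors deposited 1 linear intensity per probe set and array. The summary program and its scaling: not given in the sources used here. Detection calls were not used. Of 45101 probe sets, 64 controls were left out, and 34945 with a single symbol were kept (932 had several, 9160 none). Symbols of 34741 were updated through Entrez identifiers with RefSeq names of GRCm38.p6, used for names and gene order.

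Intensities were quantile normalised, floored at 1 and taken to log2(value + 16). The brightest probe set stood for a gene. The lowest 40% (7277 genes, or 13978 probe sets in the fit of all probe sets) were not tested. Knockout was compared with wildtype with limma 3.58.1 in R 4.3.3 (lmFit, eBayes with an intensity trend, Benjamini-Hochberg, two-sided, no covariate), after a check on simulated data. The labels state a false discovery rate of 0.1. The ratio of the 2 brightest probe sets of a gene was fitted without a trend. No column was left unused (0). Figures were drawn with matplotlib 3.10.9.

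Named were Ccnd1 and all members, called genes of the chromosome 7 window, the 3 genes most correlated with a called member, and called partner genes, at most 2 per list. Rims1, Ptprf and genes too dim to test were named after their values were seen. Replicate numbers were not used as a pairing in the main fit. Alternatives covered scaling, pseudocount, filter, probe set choice, variance and error model, threshold, blocks, averaged pools and leaving out each array.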

Additional observations from a re-analysis of the deposited data

How the results depend on the processing

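The 1 member gene called became 2 with array weights (estimated gene by gene) and 0 with pools 1 and 2 averaged or with the probe sets of a gene averaged, and 0 to 2 without single arrays. The 1 member probe set called became 3 with array weights, 0 with the submitters' error model, rebuilt from the settings they state, or averaged pools, and 0 to 3 without single arrays. The 1 window gene called became 4 with array weights, 0 with median centring, no filter, no intensity trend, the submitters' error model, a threshold of 0.05 or averaged pools, and 0 to 1 without single arrays. The 6 partner genes called became 36 with array weights, 0 with median centring, the submitters' error model or averaged pools, 2 as deposited, 3 with no filter, no trend or a threshold of 0.05, and 1 to 19 without single arrays. Over all genes, 509 calls became 43 with averaged pools and 3604 with array weights.

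The replicate number as a block gave 0 member genes, 0 member probe sets and 2 partner genes. Same-numbered pools deviated from their genotype means with correlations of 0.20, -0.29 and -0.45. With so few pools these values cannot settle whether the numbers are a pairing, and the labels do not say.

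Signs of uncalled differences turned as follows. Cttn was 0.083 with median centring, 0.17 as deposited, 0.022 with the array set block or averaged pools, 0.19 with the probe set of largest difference and 0.084 with averaged probe sets. Ppfia1 was 0.012 as deposited, 0.20 with the probe set of largest difference and 0.073 with averaged probe sets. As deposited, Nadsyn1 was 0.062 and Fadd 0.023. The dimmest tested Cttn probe set was -0.12 with array weights, and Ptprs, which is called, 0.039 with averaged probe sets. Without single arrays the ranges were -0.11 to 0.082 for Nadsyn1, -0.10 to 0.070 for Cttn, -0.15 to 0.057 for Ppfia1, -0.15 to 0.028 for Fadd, -0.015 to 0.40 and -0.037 to 0.16 for the dimmest and the second brightest Cttn probe set, and -0.080 to 0.20 for the Oraov1 ratio. The cause was not tested.

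The difference of Ano1 kept its direction in all 21 alternatives (0.83 to 1.36), and its probe set ratio in all 19 (0.46 to 0.60), where it was never past the threshold. In the values as deposited the median of all genes was 0.13 in place of 0.020, and 70.3% of calls were rises in place of 43.6%. Signal over background cannot be judged without detection calls, which limits what dim genes such as Tpcn2 can show.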

Other observations

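Among genes of the window too dim to test, E230032D23Rik, on the Nadsyn1 side, stood lower in the knockout, and it is named here after its values were seen. Its level was 5.74, 5.91 and 5.76 in wildtype and 5.40, 5.05 and 4.83 in knockout pools 1 to 3, with no overlap. In a fit with no filter on low values the difference was -0.71 (95% confidence interval -1.13 to -0.29, limma adjusted p = 0.158), so it did not pass.

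The tetraspanin gene Cd81, also in the window and also named after its values were seen, was at 9.85, 9.78 and 9.84 in wildtype and 9.93, 10.08 and 9.99 in knockout pools 1 to 3. Its difference of 0.18 was small and did not pass (limma adjusted p = 0.362). The genotypes did not overlap, as in 20% of all tested genes.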
